A study of Mus musculus with 56 samples.

Results

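Hpxn, Fga and Tcea1 were 3 genes of the 5883 gene symbols spotted as 7625 named cDNA clones on the MUSV29K nylon microarray, and each was measured by a single spot. They were chosen by their measured values, as clones whose signal was high in mouse lung 18 and 24 hours after an injection of oleic acid (OA), so the rise of OA mice at those times is given below as a description, without a test. Tests were kept for the mice injected with physiological serum, which the choice did not use, and for how the 3 signals moved together within time points. The difference between 24 and 18 hours was tested too. In OA mice it comes from the same late mice whose mean chose the clones. In serum mice all 3 clones were low at 18 hours, and the single serum mouse of 24 hours was close to the OA mice of 24 hours.

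All 35 mice were C57Bl/6J females of 7 weeks that received 20 µl through the tail vein under xylazine and ketamine, and RNA came from the smallest lung of each. OA, a fatty acid that injures the lung when it reaches it with the blood, was given to 27 mice, of which 4, 6, 7, 4, 3 and 3 were sacrificed after 1, 1.5, 3, 4, 18 and 24 hours respectively. Physiological serum was given to 8 mice, of which 2, 1, 2, 2 and 1 were sacrificed after 1, 1.5, 3, 18 and 24 hours, with none after 4 hours, so the serum value at 24 hours is that of 1 mouse on 1 microarray. The 27 OA mice were read on 50 microarrays and the 8 serum mice on 9, and 1 further OA microarray, whose mouse the labels leave unresolved, was set aside. The names of OA mice hold an L number whose meaning is not given in the sources used here. All mice of 18 and 24 hours are L1, and at earlier times only P2L1 and P3L1 at 3 hours and P4L1 at 4 hours are.

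Hpxn is an older symbol of Hpx, hemopexin, the plasma protein that binds free heme and carries it to the liver. Fga encodes the alpha chain of fibrinogen, the soluble protein that thrombin turns into fibrin. Both are made chiefly by hepatocytes and secreted into the blood, and both are acute phase proteins, whose synthesis in the liver rises during inflammation under interleukin 6, acting through STAT3, and under C/EBP factors. Tcea1 encodes the elongation factor TFIIS, which rescues RNA polymerase II that has stalled and backtracked, and is used by cells of every kind. The identity of each spot rests on its label. Clone sequences were not at hand, and whether a spot carries the gene it is named for was not tested.

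RefSeq promoter sequences were at hand for Hpxn (as Hpx) and Fga and not for Tcea1. They are shown because the clones moved together and the factors named above are known to act on acute phase promoters. The windows are the 250 bases before the RefSeq transcription start on GRCm38.p6, chr7:105600117-105600366 on the minus strand and chr3:83025903-83026152 on the plus strand, each written 5′ to 3′ on the strand of the gene. Capitals mark the matches found.
Hpxn: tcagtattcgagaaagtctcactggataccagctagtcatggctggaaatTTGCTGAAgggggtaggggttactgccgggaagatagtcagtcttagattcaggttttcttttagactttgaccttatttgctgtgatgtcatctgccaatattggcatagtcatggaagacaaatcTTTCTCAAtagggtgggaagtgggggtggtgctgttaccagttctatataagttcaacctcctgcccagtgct
Fga: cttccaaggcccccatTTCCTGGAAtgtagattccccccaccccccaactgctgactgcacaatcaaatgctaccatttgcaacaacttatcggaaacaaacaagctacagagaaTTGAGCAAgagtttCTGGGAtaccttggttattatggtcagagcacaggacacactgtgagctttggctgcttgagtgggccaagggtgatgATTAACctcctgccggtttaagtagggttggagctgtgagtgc
Both strands were searched for CTGGGA, the core of the type II interleukin 6 response element, for TTCNNNGAA, a STAT site that reads the same on both strands, for TTNNGNAA, a loose C/EBP site, for GTTAAT, one arm of the paired site of the hepatocyte factor HNF1, and for TATAAA. The Hpxn window held the C/EBP letters at 2 places, 200 to 193 and 73 to 66 bases before the start, both on the opposite strand, and none of the other letters. The Fga window held the C/EBP letters 135 to 128 bases before the start, the interleukin 6 core at 121 to 116, the STAT letters at 234 to 226, and the HNF1 letters on the opposite strand at 43 to 38. None of these matches overlapped another. Of 32851 RefSeq windows of the same length, 36.8% held the C/EBP letters, 27% CTGGGA, 7.02% TTCNNNGAA, 6.43% GTTAAT and 12.4% TATAAA.

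Levels are given per mouse on a log2 scale after quantile normalization, with the microarrays of a mouse averaged. A level of 9.01 is the 95th percentile of the 2159 spots with no gene name, as the mean over microarrays, and is used as a mark of dim spots. Above that percentile of its own membrane, Tcea1 was read on 34 of 50 OA microarrays, Hpxn on 14 and Fga on 11. At 24 hours all 6 OA microarrays were above it for all 3 clones. At 1 and 1.5 hours no OA microarray was above it for Hpxn or Fga. The early levels of these clones are therefore mostly those of dim spots, which limits how far a fold change can be read. The median intensity of a membrane, on the log2 scale before normalization, ranged from 6.75 to 9.36 in OA and from 5.73 to 8.39 in serum microarrays. The serum microarray at 24 hours, with a median of 7, lay in the lower part of both ranges and gave unnormalized intensities of 3030 for Tcea1, 1287 for Hpxn and 436 for Fga.

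In OA mice Hpxn was the clone with the most orderly course. The 4 mice of 1 hour ranged from 7.43 to 8.19 with a median of 7.59. The 6 mice of 1.5 hours ranged from 7.92 to 8.52 with a median of 8.11. At 3 hours the 7 mice spread from 7.51 to 9.56 with a median of 8.14, and at 4 hours the 4 mice from 7.88 to 8.98. These 4 groups overlapped one another, and the highest values of the later 2 were those of L1 mice. At 18 hours the mice stood at 9.19, 9.39 and 9.42. At 24 hours they stood at 10.37, 10.41 and 10.56. The 18 hours mice lay above every earlier OA mouse except P2L1 at 3 hours, and the 24 hours mice above all 24 other OA mice.

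Fga ran lower and spread more widely. The mice of 1 hour lay between 6.54 and 7.88, those of 1.5 hours between 7.30 and 7.84, those of 3 hours between 6.30 and 9.63, and those of 4 hours between 7.53 and 9.01. At 18 hours the values were 8.26, 8.55 and 9.38, which overlapped those of 3 and 4 hours. At 24 hours they were 9.61, 9.68 and 10.08. P2L1 at 3 hours, at 9.63, was level with the lowest 24 hours mice, so for Fga even the 24 hours group was not clear of the earlier mice.

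Tcea1 was the brightest of the 3 spots. Its 21 OA mice of 1 to 4 hours ranged from 7.69 to 10.42 with a median of 9.28. At 18 hours the mice stood at 9.22, 9.46 and 10.58, within or just above that range. At 24 hours they stood at 11.59, 11.69 and 11.81, above all others. From the mean of the 4 earlier time points the mean of 18 hours differed by 0.68 and that of 24 hours by 2.62 (log2).

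**Figure D1:**
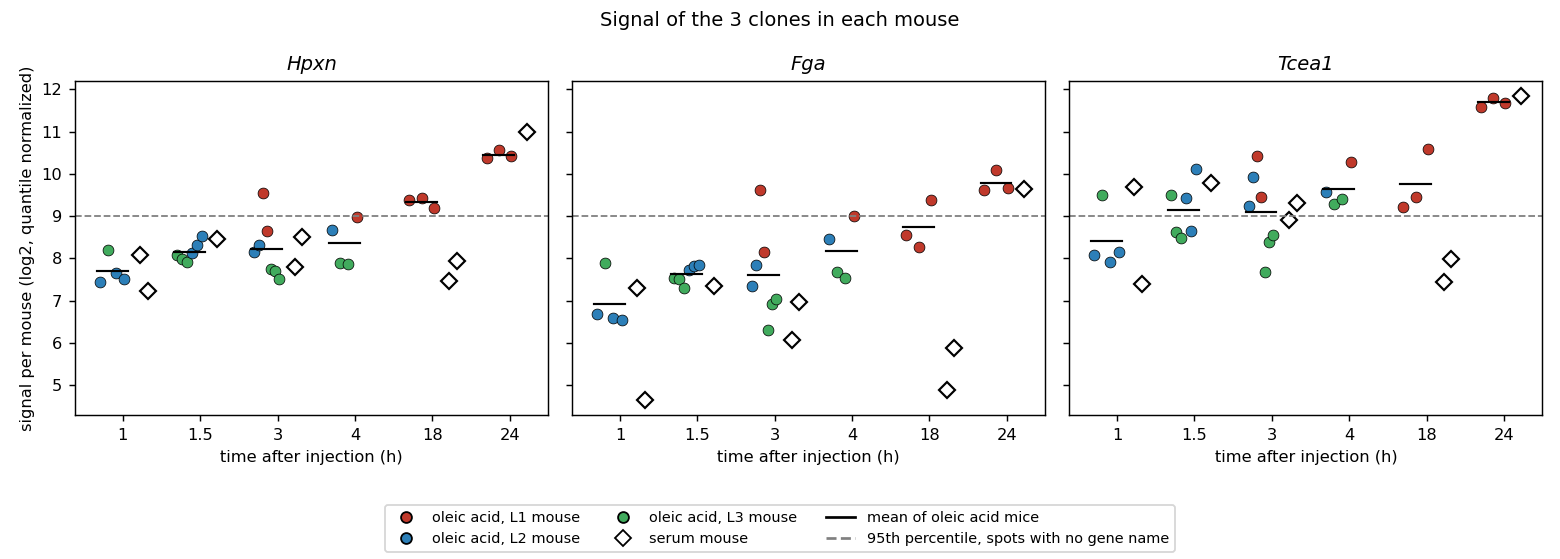
Signal of Hpxn, Fga and Tcea1 in each mouse (y axis, log2 after quantile normalization) at each time after injection (x axis, hours, not to scale). Circles are OA mice coloured by the L number in their name, with their mean as a line, diamonds are serum mice, and the dashed line at 9.01 marks the spots with no gene name. The mice of 24 hours, OA and serum alike, lie at 10.37 to 10.99 for Hpxn, 9.61 to 10.08 for Fga and 11.59 to 11.84 for Tcea1.

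As the difference that chose them, the mean of 18 and 24 hours minus the mean of the 4 earlier times was 1.78 ± 0.21 (log2, standard error (SE) of the limma fit over 35 mice) for Hpxn, 1.68 ± 0.34 for Fga and 1.65 ± 0.33 for Tcea1. With Hpxn and Fga above the mark of dim spots on 4 of 39 earlier microarrays each, no fold is given. Among all 7625 clones they held ranks 2, 3 and 4 by size, and 0.931% of clones were called higher in this comparison at a limma adjusted p under 5%. In no member did all 6 late OA mice lie above all 21 earlier ones, which 0.0525% of clones showed. The log2 table that the authors deposited gave 1.81 for Hpxn, 1.68 for Fga and 1.65 for Tcea1 over the same mice.

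The L1 mice of 3 and 4 hours bear on this difference. For Hpxn these 3 mice stood at 8.64, 8.98 and 9.56, while the 8 mice of L2 and L3 at the same times had a mean of 7.98 ± 0.38 (SD) and did not exceed 8.68. For Fga the L1 mice stood at 8.16, 9.01 and 9.63 against 7.39 ± 0.66, and for Tcea1 at 9.45, 10.29 and 10.42 against 9.01 ± 0.73. L1 minus L2 and L3 within 3 and 4 hours was 1.03 ± 0.24 (SE) for Hpxn, 1.46 ± 0.44 for Fga and 1.02 ± 0.47 for Tcea1. This comparison was added after these values had been seen. In limma it called 0% of clones higher, and the adjusted p was 0.201, 0.289 and 0.590, with 603 of 7625 clones at an unadjusted p under 0.05.

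Within L1 alone, the late mice minus the mice of 3 and 4 hours gave 0.83 for Hpxn, 0.33 for Fga and 0.67 for Tcea1. The 18 hours mice by themselves differed from the L1 mice of 3 and 4 hours by 0.27 for Hpxn, by -0.20 for Fga and by -0.30 for Tcea1, and their ranges overlapped for all 3. The 24 hours mice differed from them by 1.39, 0.86 and 1.64. With the L number as a block in the fit, late minus earlier was 0.87 ± 0.24 for Hpxn, 0.36 ± 0.46 for Fga and 0.77 ± 0.48 for Tcea1. For the 18 hours mice, the L number and the time cannot be told apart beyond what these 3 earlier L1 mice show.

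The serum mice were not used in choosing the clones. Whether the same rise came without OA rests on 2 of them at 18 hours and 1 at 24 hours, too few to settle it. At 18 hours the serum mice were not raised. They stood at 7.47 and 7.95 for Hpxn, within the range of 7.22 to 8.50 of the 5 serum mice of 1 to 3 hours. For Fga they stood at 4.88 and 5.89, where the earlier serum mice ran from 4.65 to 7.35. For Tcea1 they stood at 7.43 and 8.00, where the earlier ones ran from 7.40 to 9.78. At 24 hours the serum mouse reached 10.99 for Hpxn, 9.65 for Fga and 11.84 for Tcea1. That mouse was above the other 7 serum mice for all 3 clones, which 12.7% of all clones showed.

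Over both late times together, serum late minus earlier was 1.26 ± 0.34 for Hpxn, 0.90 ± 0.57 for Fga and 0.64 ± 0.54 for Tcea1. None was called (limma adjusted p = 0.0789, 0.582 and 0.717), against 0.341% of clones called higher. The 95% intervals reached from 0.56 to 1.96, from -0.27 to 2.07 and from -0.47 to 1.74. These differences weight the time points equally. As plain means over mice, late minus earlier was 0.79 for Hpxn, 0.34 for Fga and 0.08 for Tcea1, and an exact permutation test of these over the 8 serum mice, two-sided, gave p = 0.464, 0.786 and 0.946, the smallest p it could give being 0.0179. The mean of both late times joins values that lie far apart, so the times were also compared with each other.

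Serum at 24 hours minus 18 hours was 3.28 ± 0.54 for Hpxn, 4.27 ± 0.91 for Fga and 4.13 ± 0.86 for Tcea1. The microarrays of 18 hours had none of the 3 clones above the mark of dim spots, so the size has only a bound. With both 18 hours microarrays set to that mark, the 24 hours mouse was at least 3.75-fold higher for Hpxn, 1.48-fold for Fga and 6.74-fold for Tcea1. In the fit over all groups, with 1 mouse against 2, all 3 were called higher (limma adjusted p = 0.00133, 0.0141 and 0.0121), where 0.511% of clones were. By the size of the fitted difference, Fga, Tcea1 and Hpxn held ranks 2, 4 and 10 of 7625. The fit takes the spread of the lone 24 hours mouse, which is unknown, to be like that of the other groups, and no other serum mouse of 24 hours can bear on the calls. With the fitted signal in place of the image signal, Hpxn (2.44, limma adjusted p = 0.623) and Fga (1.87, 0.255) were not called and Tcea1 was (4.60, 0.0154). With the serum mice fitted alone, Hpxn was still called (adjusted p = 0.0340) and Fga and Tcea1 were not (0.262 and 0.118). Without the first of the 2 serum mice of 18 hours, Fga and Tcea1 were not called either (0.139 and 0.0959).

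OA mice, whose late values served in the choice of the clones, showed the same direction with a smaller step. OA at 24 hours minus 18 hours was 1.12 ± 0.36 for Hpxn, 1.06 ± 0.60 for Fga and 1.94 ± 0.57 for Tcea1.  None was called in limma over all clones (adjusted p = 0.494, 0.858 and 0.375, unadjusted p = 0.00453, 0.0904 and 0.00206). Few clones were, 0.0262% called higher. The step of OA minus that of serum was -2.17 ± 0.65 for Hpxn, -3.21 ± 1.09 for Fga and -2.19 ± 1.03 for Tcea1. None of these was called (limma adjusted p = 0.540, 0.634 and 0.869), where 0.0393% of clones were called in either direction, and 425 had an unadjusted p under 0.05.

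**Figure D2:**
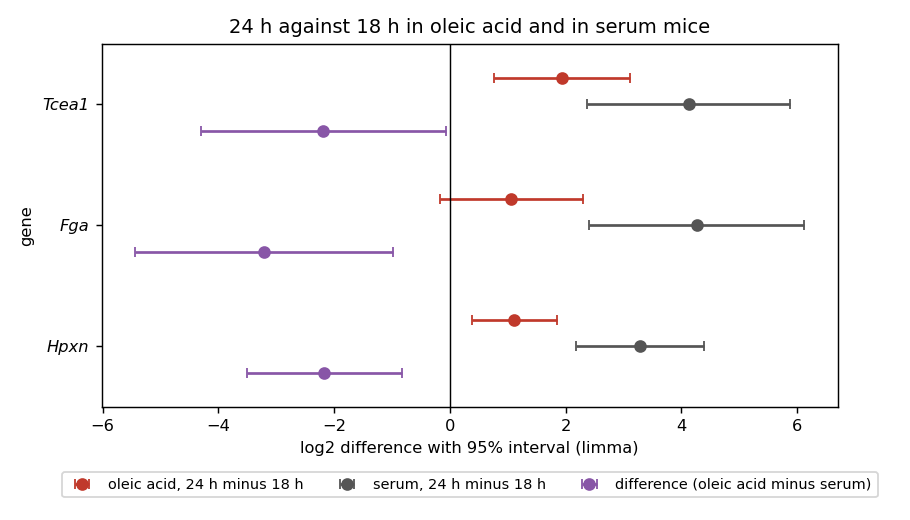
Difference between 24 and 18 hours (x axis, log2, with the 95% interval of the limma fit) for Hpxn, Fga and Tcea1 (y axis) in OA mice (red), in serum mice (grey) and as OA minus serum (purple). The serum differences lie between 3.28 and 4.27, the OA differences between 1.06 and 1.94, and the interval of Fga in OA mice includes 0.

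Side by side, OA minus serum was near 0 for Hpxn and Tcea1 at 1 and 3 hours, at 0.04 ± 0.38 and 0.08 ± 0.36 for Hpxn and at -0.13 ± 0.61 and 0.00 ± 0.56 for Tcea1. For Fga it was 0.95 ± 0.64 and 1.08 ± 0.59. At 1.5 hours it was -0.31 ± 0.48 for Hpxn, 0.27 ± 0.80 for Fga and -0.64 ± 0.76 for Tcea1. At 18 hours it was 1.62 ± 0.40 for Hpxn, 3.35 ± 0.68 for Fga and 2.04 ± 0.64 for Tcea1, and each of the 3 OA mice lay above both serum mice for all 3 clones, as it did for 29.3% of all clones. At 24 hours it was -0.54 ± 0.51, 0.14 ± 0.85 and -0.15 ± 0.81. No test is given, since the late OA mice served in the choice of the clones. As fitted, the difference between OA and serum was widest at 18 hours, where the serum mice were low, and close to 0 at 24 hours, where both were high. At 18 hours no serum microarray had any of the 3 clones above the mark of dim spots. Fga was above it on 1 of 5 OA microarrays of 18 hours, so the sizes at that time, that of Fga most, rest on dim spots.

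The 3 signals moved together from mouse to mouse. Over the 27 OA mice, which share the time course that chose the clones, Pearson's r was 0.94 for Hpxn and Fga, 0.89 for Hpxn and Tcea1 and 0.93 for Fga and Tcea1. Over the 8 serum mice r was 0.94, 0.92 and 0.99, and without the 24 hours mouse it was 0.93, 0.87 and 0.98 over 7 mice. These are descriptions without a p, over mice that share time and membrane brightness.

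To set the time course aside, each OA mouse was expressed as its deviation from the mean of its time point. Hpxn and Fga then had r = 0.89 and Spearman's rho = 0.84 (n = 27, permutation p = 3.0e-05 and 9.0e-05 within time points). Fga and Tcea1 had r = 0.85 and rho = 0.79 (permutation p = 1e-05, the smallest that 100000 resamples can give, and 3.0e-05). Hpxn and Tcea1 had r = 0.73 and rho = 0.67 (permutation p = 2.0e-04 and 0.0010). After Benjamini-Hochberg adjustment over the 3 pairs the p of r were 4.5e-05, 3.0e-05 and 2.0e-04 in the same order, and those of rho 1.3e-04, 9.0e-05 and 0.0010.

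Without the 2 mice farthest from the median on the x axis, r was 0.77 for Hpxn and Fga (permutation p = 9.1e-04), 0.80 for Fga and Tcea1 (4.0e-05) and 0.62 for Hpxn and Tcea1 (0.0043). P2L1 of 3 hours, high in all 3 clones, was among the mice left out in each case. Over the 18 mice of L2 and L3 alone r was 0.84, 0.82 and 0.71 (permutation p = 9.8e-04, 1.5e-04 and 0.0017). As deviations from the mean of each time and L number, Fga and Tcea1 kept r = 0.71 (permutation p = 0.0041), while Hpxn and Fga had r = 0.47 (0.739) and Hpxn and Tcea1 r = 0.30 (0.467). The relation of Hpxn with the others thus did not pass the threshold within time and L number, where the sets hold 1 to 3 mice and the permutations few arrangements.

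**Figure D3:**
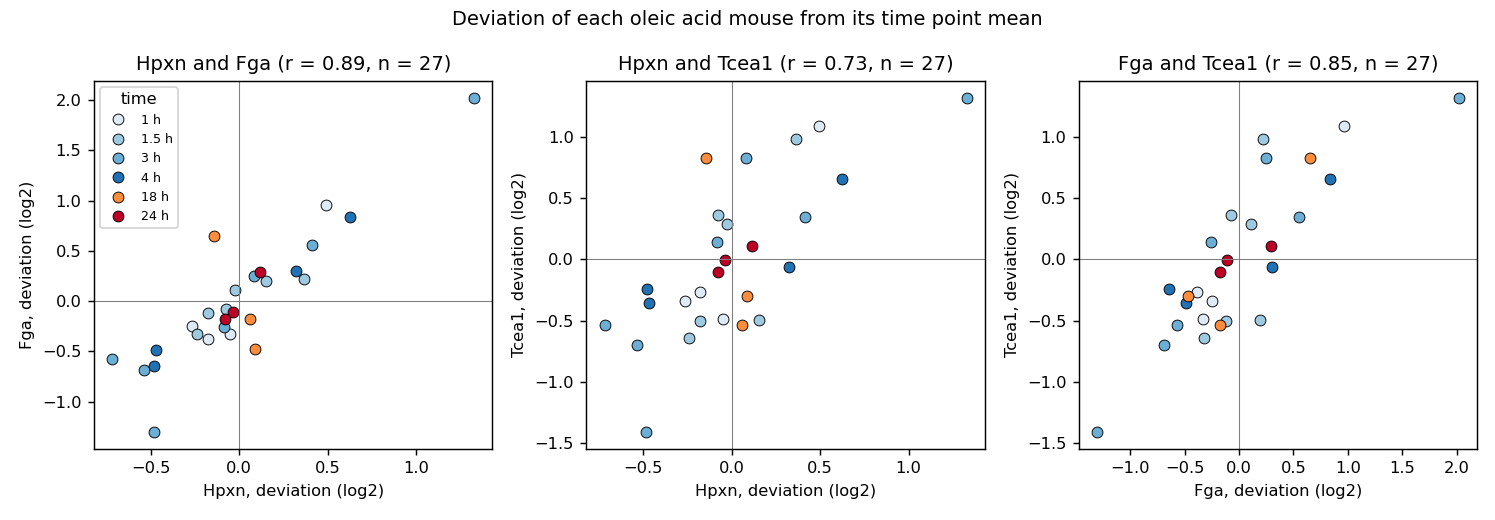
Deviation of each of the 27 OA mice from the mean of its time point (log2) for each pair of clones, coloured by time. The points run from low left to high right with r = 0.89, 0.73 and 0.85, and the point at the top right of each panel is P2L1 of 3 hours.

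The signals also repeated on second membranes. In 24 mice read on 2 microarrays the median difference between them was 0.18 for Hpxn, 0.24 for Fga and 0.18 for Tcea1 (log2). The SD between microarrays of a mouse was 0.21, 0.21 and 0.29, and the SD between mice of the same group was 0.47, 0.80 and 0.75. The largest difference between microarrays of a mouse, 1.74, was that of Tcea1 in P11L2 of 4 hours, and every other difference was at most 0.69. The 3 spots lie apart on the membrane, and in OA mice each of the 8 spots around a clone moved less than the clone. At 24 hours in OA mice the neighbours of Hpxn differed from the earlier mice by -0.15 to 0.20 where Hpxn differed by 2.32. Those of Fga differed by -0.13 to 0.59 and those of Tcea1 by -0.20 to 0.72, where the clones themselves differed by 2.20 and 2.61. In serum, 24 minus 18 hours, the neighbours of Hpxn reached at most 0.65 and those of Fga 0.61, while 1 neighbour of Tcea1 reached 2.08 beside the 4.13 of Tcea1.

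The clones with the most similar signal over the 27 OA mice were nearly the same for the 3 members, and most encode proteins of hepatocytes. For Hpxn they were Gc, the vitamin D binding protein of plasma (r = 0.94), Mat1a, the liver enzyme that makes S-adenosylmethionine (0.93), Serpina3g, a serine protease inhibitor (0.92), F2, prothrombin (0.92), and Serpinc1, antithrombin (0.91). For Fga they were Gc (0.96), Mat1a (0.96), F2 (0.94), Cyb5r3, a cytochrome b5 reductase (0.93), and Apoh, a plasma protein that binds phospholipids (0.93). For Tcea1 they were Apoh (0.96), 1 of 2 clones named Ndufb7, a subunit of respiratory complex I (0.96), Scnn1g, a subunit of the epithelial sodium channel (0.95), Gc (0.95) and Cyb5r3 (0.95). The other Ndufb7 clone had r = -0.19 with Tcea1.

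Among the 20 nearest clones of each member, 17 were shared by all 3 lists. They included Alb1 (albumin), Gnmt, Apoa5, Ahcy and Es1. Counted among all other clones, Fga held rank 2 and Tcea1 rank 12 by likeness to Hpxn, and Tcea1 held rank 6 by likeness to Fga. The likeness was measured over the same mice in which the late rise chose the members, and no test is attached to it. In the serum mice, which had no part in the choice, r of Gc with Hpxn, Fga and Tcea1 was 0.95, 0.99 and 0.98, while r of Serpina3g was 0.41, 0.33 and 0.34. For Alb1, r with Hpxn, Fga and Tcea1 was 0.84, 0.92 and 0.95 over the OA mice. Over the serum mice it was 0.88, 0.96 and 0.98. These serum r include the lone 24 hours mouse, with Gc at 10.07 and Alb1 at 12.82 against 18 hours means of 6.52 and 8.57. No r without that mouse is given for these clones.

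**Figure D4:**
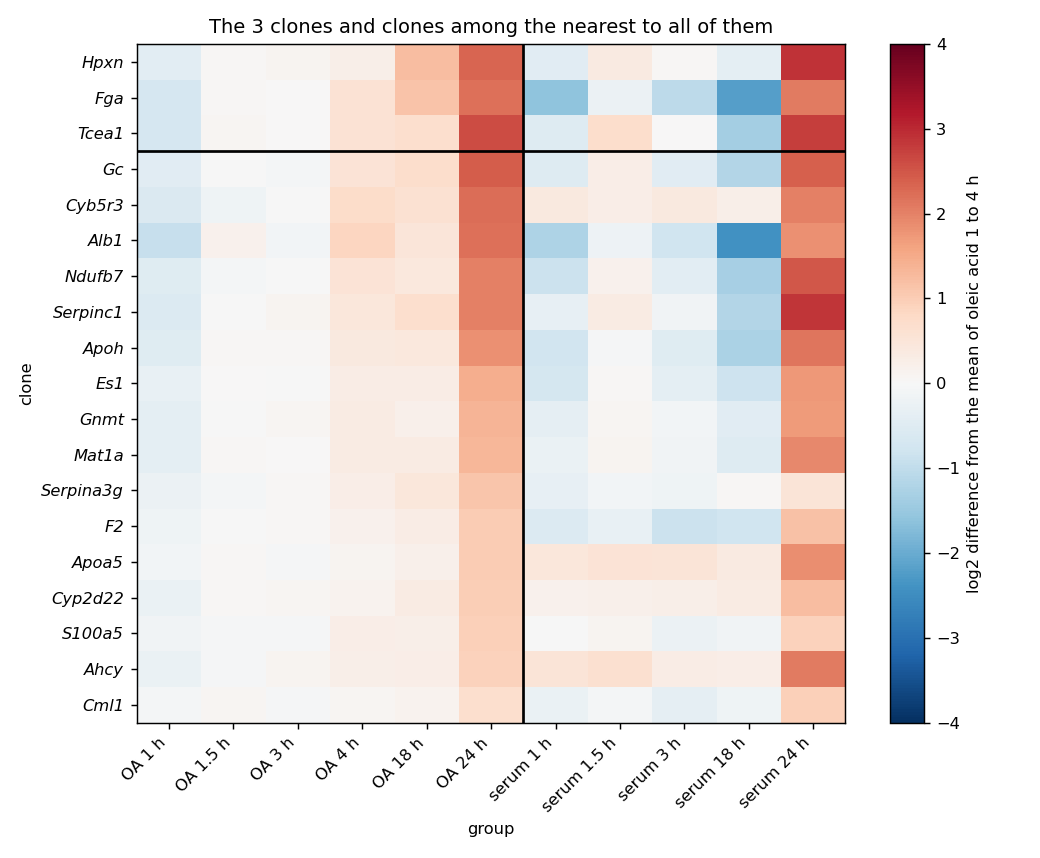
Mean signal of Hpxn, Fga, Tcea1 and of clones shared by their lists of nearest clones, as the log2 difference from the mean of OA at 1 to 4 hours (colour), in each group (columns). Tcea1 reaches 2.62 in OA and 2.77 in serum at 24 hours and stands at 0.68 in OA and -1.36 in serum at 18 hours. The 24 hours columns are the reddest in both treatments for Gc, Apoh, Alb1 and Serpinc1 as for the members.

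The summed signal of hepatocyte markers moved with the 3 clones. Of 28 hepatocyte markers 14 are on the microarray, as 16 clones, and 6 of these had a mean level above 9.01. Their summed signal on the log2 scale lay between 13.53 and 14.53 in OA mice of 1 to 4 hours, between 13.96 and 14.24 at 18 hours and between 14.93 and 15.08 at 24 hours. In serum it lay between 12.60 and 13.24 at 1 to 3 hours, at 12.45 and 12.65 at 18 hours and at 14.33 at 24 hours. Over the 27 OA mice its r with Hpxn, Fga and Tcea1 was 0.86, 0.87 and 0.91, within time points 0.71, 0.75 and 0.75, and over the 8 serum mice 0.97 for each. The serum r includes the lone 24 hours mouse, which lay far above the others. The sum is weighted to the brightest clones, such as Alb1 (mean level of 11.02), which is also among the shared nearest clones. In RNA of a whole lung, more cells of a type and more RNA in each cell cannot be told apart, and what part this signal has in the rise of the 3 clones was not tested.

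Individual hepatocyte markers differed. Of the 16 clones 5 were called higher in late than in earlier OA mice, with limma adjusted p under 5% over all clones, and none lower. All late OA mice are L1, and with the L number as a block none of the 5 was called (Gc 0.34, Apoh 0.52, Rbp4 0.36 and Trf 0.23, each with adjusted p = 1.00), while with the fitted signal Apoh was (1.57, 0.0402). The median difference of the list was 0.41 against 0.00 over all clones. Without the block, those called included Gc (1.58 ± 0.31), Apoh (1.13 ± 0.22), Rbp4, the carrier of retinol (0.70 ± 0.16), and Trf, transferrin (0.65 ± 0.14). In serum 4 were called higher in the 1 mouse of 24 hours than in the 2 of 18 hours, Alb1 by 4.25, Gc by 3.56, Apoh by 3.40 and Hrg, a histidine-rich plasma glycoprotein, by 1.82, with a list median of 1.41 against -0.04. None of these 4 was called with the serum mice fitted alone (adjusted p from 0.0607 to 0.506). Alb1 went from 8.42 and 8.72 in serum at 18 hours to 12.82 at 24 hours, and stood between 12.94 and 13.47 in OA at 24 hours. Hrg went from 5.44 and 5.76 to 7.42 in the same serum mice, under the mark of dim spots throughout. The 2 clones of Ttr (transthyretin), and those of Ahsg (fetuin), Vtn (vitronectin) and Arg1 (arginase of liver) were not called, with late minus earlier differences in OA between -0.04 and 0.08. Their mean levels, 6.69 to 8.84, were under the mark of dim spots. Apoc1 (mean level of 10.60) and Cyp2e1 (10.88) were not called either, at 0.64 and 0.55. From 18 to 24 hours in serum these 2 were at 2.04 and 2.41. Neither of the 2 clones of Apob (apolipoprotein B) was called. The brighter one, with a mean level of 11.24, was at -0.09 in OA late minus earlier. From 18 to 24 hours it was at 0.56 in OA and at -0.18 in serum. The other was at 0.13, 0.09 and 0.22 in the same order.

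**Figure D5:**
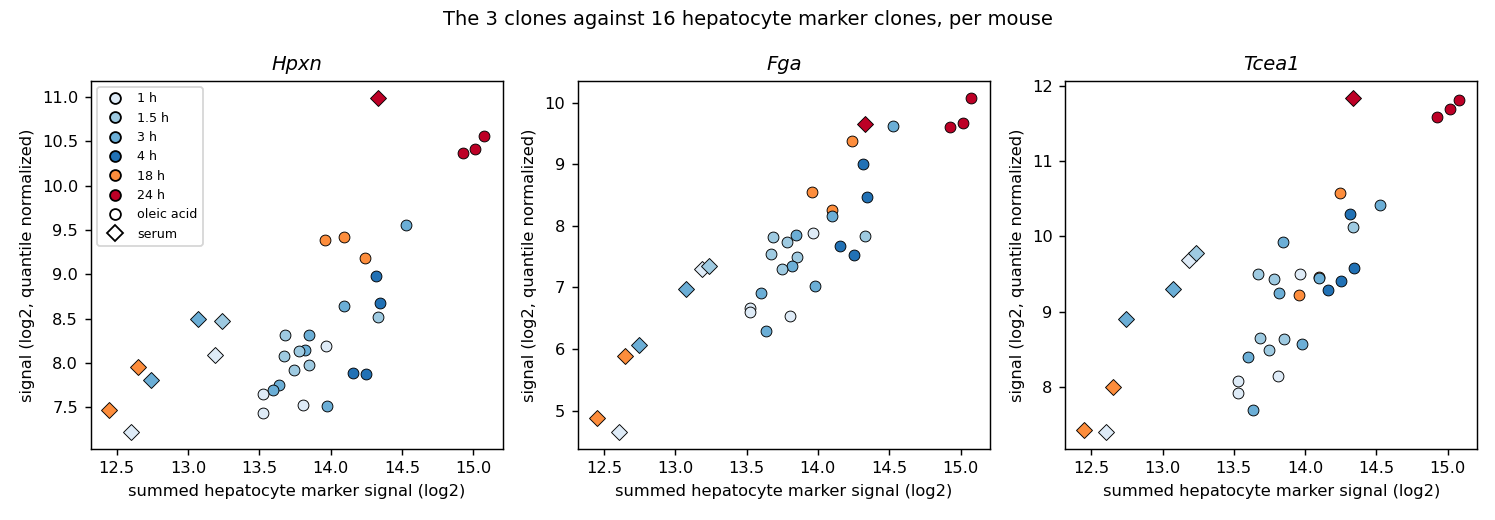
Signal of each clone (y axis, log2) against the summed signal of 16 hepatocyte marker clones (x axis, log2) in each mouse, coloured by time, circles for OA and diamonds for serum. The 24 hours mice lie at the upper right, the OA mice at 14.93 to 15.08 and the serum mouse at 14.33 on the x axis. For Hpxn the 18 hours OA mice, at 9.19 to 9.42, lie above the 4 hours mice, at 7.88 to 8.98, over much the same marker signal.

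Between 4 and 18 hours the values were as follows. The OA mice of 18 hours lay above all 4 hours mice for Hpxn, with no overlap, while their hepatocyte marker sum of 13.96 to 14.24 overlapped the 14.16 to 14.34 of the 4 hours mice. For Fga and Tcea1 both groups overlapped. Since 1 of the 4 hours mice and all 18 hours mice are L1, and P2L1 of 3 hours (9.56 for Hpxn) exceeded every 18 hours mouse, this order is a description without a test. Relative to the mean of OA at 1 to 4 hours, Hpxn stood at 1.22 at 18 hours and Fga at 1.15, while Gc stood at 0.72, Tcea1 at 0.68, Alb1 at 0.49 and Apoh at 0.43.

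Of the other acute phase proteins, 20 symbols of a list of 53 are on the microarray, as 25 clones beside the members. In OA mice 3 clones were called higher at late than at earlier times and 1 lower, and the median difference of the list was 0.04 against 0.00 over all clones. Over all the lists described, 14 clones were called in this comparison, 2 of them (Saa3 and Plat) with the L number as a block as well, 3 (Saa3, Plat and Mt1) in L1 mice alone and 2 (Saa3 and Apoh) with the fitted signal. Saa3, a serum amyloid A made outside the liver too, rose by 0.89 ± 0.10 (limma adjusted p = 4.0e-06). Its mean level of 7.25 was under the mark of dim spots, as were those of Apcs (6.27), Serpina3g (8.61) and Cfi (8.60). That limits how far these differences can be read. With the L number as a block Saa3 was at 0.92 (0.0385). Serpina3g rose by 0.79 ± 0.18 (0.0173), or 0.34 with the block (1.00), and Apcs, serum amyloid P, by 0.39 ± 0.09 (0.0175), or 0.37 with the block (0.886). Of 2 clones of Mt1, the metal-binding metallothionein 1, 1 fell by 0.97 (0.00503; -1.06 and 0.586 with the block) and the other was at -0.41 (0.518). Saa3 had r = 0.83 with Hpxn over the OA mice and 0.15 within time points. In serum, 24 minus 18 hours, Apcs was at 1.65, Cfi, complement factor I, at 1.01 and Saa3 at 0.33, with a list median of 0.47. These steps rest on the 1 serum mouse of 24 hours.

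The coagulation list, in which Fga belongs, has 14 of 45 symbols on the microarray as 15 clones beside it. F2 (0.66 ± 0.14), Serpinc1 (1.34 ± 0.28) and Serpinf2, the plasma inhibitor of plasmin (0.42 ± 0.10), were called higher in late OA mice, and with the L number as a block they were at 0.31, 0.29 and 0.28 and not called (adjusted p = 1.00 each). Plat, tissue plasminogen activator, fell by 0.46 (-0.89 with the block, adjusted p = 0.0460, and -0.20 with the fitted signal, 0.940). Serpinc1 (4.03), F2 (1.96) and Serpinf2 (1.62) were also higher in the 1 serum mouse of 24 hours than in those of 18 hours. With the fitted signal these steps were 6.63, 1.69 and 0.75. They rest on that mouse, which also enters the 1.00 of Serpinf2 over serum late minus earlier. The mean levels of the 3 clones, 6.94, 7.81 and 6.86, were under the mark of dim spots. The list's median difference was -0.01 in OA and -0.01 in serum from 18 to 24 hours, against 0.00 and -0.04 over all clones. No clone of it was called in OA from 18 to 24 hours, where Serpinf2 (0.65, adjusted p = 0.295) and F2 (0.71, 0.582) had the smallest p.

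Around hemopexin, 20 of 41 genes of heme and iron handling are on the microarray, as 25 clones. Trf, also among the hepatocyte markers, was the 1 clone called in OA late minus earlier, at 0.65 without and 0.23 with the L number as a block (limma adjusted p = 1.00), and none was lower, with a list median of 0.09. Hebp1, a heme-binding protein of the cytosol, was at 0.42 ± 0.13 (limma adjusted p = 0.0891). In serum, 1 of the Ftl1 clones, ferritin light chain, rose over late minus earlier times by 0.68 (0.0252), and no clone of the list was called between 18 and 24 hours, where Trf was at 1.10 (0.305). The red cell markers, 22 clones of hemoglobins and other red cell genes, held none that was called in any of these comparisons. Their summed signal lay between 17.60 and 17.95 on the log2 scale in all 35 mice, but it is carried by Hba-a1 and Hbb-b1 clones with mean levels of 13.90 to 14.37, at the bright end of the microarray.

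The functional class of Tcea1 is described beside it, though the choice of Tcea1 for its rise fixed its place above the class in OA mice. Of 67 genes of transcription elongation and RNA polymerase II, 30 are on the microarray as 37 clones beside Tcea1, and none was called in OA late minus earlier, in either direction, where 134 of 7625 clones were called in all. The smallest p was that of Cdc73, of the PAF complex, at -0.40 ± 0.13 (limma adjusted p = 0.112). Tcea3, the paralog of Tcea1 on the microarray, was at 0.04 ± 0.08 (0.834). In serum from 18 to 24 hours, with 1 mouse at 24 hours, 1 of 2 clones of Gtf2h4, a subunit of TFIIH, was at 2.25 and the other at 0.21. The median of the list was -0.04 in OA late minus earlier and -0.02 in serum from 18 to 24 hours, where Tcea1 was at 1.65 and 4.13.

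The interleukin 6 pathway has 27 of 46 symbols on the microarray as 35 clones. None was called in OA late minus earlier, with Osmr, the oncostatin M receptor, at -0.35 ± 0.11 (limma adjusted p = 0.0895) and Tcf2 at 0.25 ± 0.09 (0.140). Foxa2, a factor of liver and airway epithelium, rose in serum late minus earlier by 0.93 (0.0264), and no clone of the list was called from 18 to 24 hours. The list's median in OA was 0.00, as that of all clones.

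Markers of lung cells gave no call. Slc34a2 and Napsa of alveolar type II cells had mean levels of 12.41 and 9.73, above the mark of dim spots, and none of the 3 type II, 1 club cell, 10 endothelial and 7 macrophage clones was called in any of the comparisons above. The differences of late minus earlier OA mice that were largest among them were those of Eng, an endothelial receptor, at 0.68 ± 0.22 and 0.44 ± 0.18 for its 2 clones (limma adjusted p = 0.105 and 0.203), and of Napsa, at 0.51 ± 0.17 (0.122), as large as those of some clones called. Of the 7 neutrophil clones S100a8, a calcium-binding protein of granulocytes, fell in OA mice from a mean of 11.89 at the 4 earlier times to 10.39 at the late times (limma adjusted p = 0.0257, or 0.886 with the L number as a block), and S100a9, its partner, was at -1.02 (0.0958).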

How the data were processed

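Lung RNA of 35 mice was hybridized to 60 MUSV29K microarrays. The authors deposited the intensity of 9984 spots per microarray on a linear scale, quantified with Bzscan2, and a log2 table that they had quantile-normalized, which was used as an alternative. The table follows the image signal at constant diameter in its 51 OA columns (r of at least 0.997). Per the study's methods, signals were corrected for local background and for the glow of bright neighbouring spots, and badly affected spots were removed by hand. Whether the intensity column used here already holds that correction is not given in the sources used here.

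The image signal at constant diameter was set to at least 1, taken to log2, quantile-normalized over all spots and 60 microarrays (limma 3.58.1 in R 4.3.3) and averaged per mouse. Serum mice were counted as the study's design gives them, with both microarrays of 1.5 hours from 1 mouse. For 1 microarray of P7L3 with conflicting labels the title, 3 hours, was used. Limma was fitted to 7625 named clones with 1 mean for each of 11 groups and 24 residual degrees of freedom, 3 of them within serum, with Benjamini-Hochberg adjustment at 5%. The 2159 spots with no gene name and 200 control spots stayed in the normalization only. Correlations used deviations from time point means, with 100000 permutations of mice within time points, two-sided (Python 3.11.15, NumPy 2.4.6). Both were checked on simulated data. The number of microarrays limits the precision, and no depth applies.

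The members, the gene lists and the tests were chosen with earlier results of these data known. Named genes are the 3 members, the 5 nearest clones of each, and from each list up to 4 called clones of OA late minus earlier, with up to 2 called in serum or between 24 and 18 hours and the 2 smallest p where nothing was called. Hepatocyte markers, shared nearest clones and neighbouring spots beyond that rule were named after their values were seen. Genes keep the symbols of the spot list, and 2 clones that the rule names are not reported here. Microarrays of a mouse were counted as 1 replicate. Alternatives were median centring, the fitted signal, a floor of 50, brighter clones only, other treatments of uncertain microarrays, mouse or L number as a block, the authors' table, serum mice alone and leaving out single mice.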

Additional observations from a re-analysis of the deposited data

Results flagged for a closer look

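In 12 sets of values (the 3 clones in the 4 OA time points with 4 to 10 mice), 2 held a mouse far from the others, and chance gives about 1 in 20. Both were P2L3 at 1 hour, with Fga at 7.88 where the other 3 mice lay between 6.54 and 6.67, and Tcea1 at 9.50 where they lay between 7.92 and 8.14. Hpxn was also highest in that mouse, at 8.19 against 7.43 to 7.65, without passing the same limit. P2L3 is the only L3 mouse of that time point.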

How the results depend on the processing

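No value changed its direction in 669 alternative values, and 610 kept their side of the threshold or stayed within the limits of change. Both numbers include values that could not move, namely OA differences with a serum mouse left out. They also include counts of called clones, which have no direction. Late minus earlier in OA mice was smaller by more than the spread between mice with the L number as a block (0.87, 0.36 and 0.77 for Hpxn, Fga and Tcea1) and in L1 mice alone, an alternative chosen after seeing the data (0.83, 0.33 and 0.67). Leaving out 1 mouse moved it within 1.74 to 1.83, 1.52 to 1.80 and 1.45 to 1.79. Only mice of groups of 5 or fewer were left out here, so no OA mouse of 1.5 or 3 hours was, and P2L1 always stayed in. In serum, 24 minus 18 hours was not called with the fitted signal for Hpxn (2.44, adjusted p = 0.623) and Fga (1.87, 0.255), nor with serum mice alone for Fga (4.27, 0.262) and Tcea1 (4.13, 0.118). Without 1 mouse it ranged from 3.04 to 3.52 for Hpxn, from 3.76 to 4.77 for Fga and from 3.84 to 4.41 for Tcea1. Hpxn in serum late minus earlier was called with median centring (1.47, adjusted p = 0.0360) and without the second serum mouse of 3 hours (1.37, 0.0344), with 1.11 to 1.40 over single mice left out. Tcea1 in OA, 24 minus 18 hours, was called with microarrays as rows and mouse as a random block (2.07, 0.00818). L1 minus L2 and L3 at 3 and 4 hours was called for Hpxn without P11L2 (1.16, 0.0342), within 0.80 to 1.26 over single mice left out. The correlations kept their calls, at 0.88 to 0.95, 0.70 to 0.79 and 0.83 to 0.86 without 1 mouse of a group of 5 or fewer.

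Counts of called clones varied more. OA late minus earlier called 134 clones, 12 with the fitted signal, 75 among clones above the unnamed spots, 369 with mouse as a random block, 4 with the L number as a block, 47 in L1 mice alone and 59 to 214 without 1 mouse of a group of 5 or fewer. The low counts of 59 to 78 came without P7L1, P8L1, P12L1, P6L1 or P11L1, and the 214 without P4L1. Serum late minus earlier called 51, 88 with a floor of 50, 0 among brighter clones, 21 with the random block, 2 with serum mice alone and 42 to 183 without 1 mouse, with 183 and 97 without the second and the first serum mouse of 3 hours and 77 without the first of 18 hours. OA 24 minus 18 hours called 2, 0 with median centring, 1 with the fitted signal, 4 among brighter clones, 0 without the microarray with conflicting labels, 28 with the random block and 0 to 3 without 1 mouse, with 0 without P7L1, P8L1, P10L1, P11L1 or P12L1. Serum 24 minus 18 hours called 47, 191 with the fitted signal, 121 with a floor of 50, 5 among brighter clones, 11 with serum mice alone and 33 to 52 without 1 mouse. OA minus serum of that step called 3, 72 with the fitted signal, 12 with a floor of 50, 0 among brighter clones and 2 to 8 without 1 mouse, with 7 or 8 without a serum mouse of 3 hours or the first of 18 hours. L1 minus L2 and L3 called 0, 34 with the fitted signal and 0 to 22 without 1 mouse, with 22 without P11L2. The causes were not tested. Hpxn and Fga, with mean levels under the unnamed spots' percentile, gave no value among the brighter clones. No paired analysis was possible because mice of different groups share no replicate number.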

Other observations

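The OA microarray of 1.5 hours whose mouse is unresolved gave 7.95 for Hpxn, 7.71 for Fga and 9.69 for Tcea1 on the normalized log2 scale. The 6 other mice of 1.5 hours ranged from 7.92 to 8.52, from 7.30 to 7.84 and from 8.49 to 10.12.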
